A study of Homo sapiens with 4 samples.

Results

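Star-PAP HITS-CLIP summits were described at 6 genes of the oxidative stress response and of detoxification, NQO1, HMOX1, GCLC, ALDH2, NOS2 and COQ2. The members are a fixed set of genes that the study measured. Every summit within a member gene or 5000 bp on either side of it was taken. They are 6 of 20163 protein-coding genes, and their windows held 136 of the 1031599 summits of the series. GCLC does not carry the label of a Star-PAP target in the study, which used it as a non-target control in its expression and half-life assays, so it is described here as a member by the rule only. In those assays the study reported no effect of Star-PAP depletion on GCLC.

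HITS-CLIP sequences the RNA fragments that stay crosslinked to a protein after UV irradiation and pull-down. The cells were HEK293, an established human embryonic kidney line, irradiated with 400 mJ per cm2. The pull-down with an antibody to Star-PAP was made in 3 states of these cells, namely control, depletion of Star-PAP by siRNA (siStar-PAP) and depletion of RBM10 by siRNA (siRBM10). A library made with IgG entered only as the reference of the peak calling. Knockdown was transient, with harvest 48 h after transfection. The labels name Oligofectamine as transfection reagent, whereas the methods of the study name calcium phosphate. The labels name no siRNA for the control sample. Each condition was 1 library, so no difference between conditions has a replicate check, and no test between them was made.

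Star-PAP is a nuclear non-canonical poly(A) polymerase that adds the poly(A) tail to selected mRNAs, and RBM10 is an RNA-binding protein that takes part in splicing and, as a coregulator of Star-PAP, in 3′-end processing. NQO1, HMOX1 and GCLC are classical antioxidant genes under the transcription factor NRF2. NQO1 reduces quinones, HMOX1 degrades heme, GCLC is the catalytic subunit of the enzyme that starts glutathione synthesis, ALDH2 is the mitochondrial aldehyde dehydrogenase, NOS2 is the inducible nitric oxide synthase and COQ2 is a prenyltransferase of coenzyme Q synthesis.

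Each list gave the 1-bp summit of a peak on hg19 and its score, a MACS2 p-value against IgG written as −log10, but no strand, width, tag number or read total. The depth behind a summit is therefore unknown, and the intervals below cover counting error only. The libraries stood apart from each other in 2 ways that touch every count below. The score 1.33, the commonest of the control list, took 63.2% of it, whereas the commonest score of siStar-PAP was 2.92 with 22.8% and that of siRBM10 was 3.25 with 22.7%. Scores were therefore not compared between lists, and the share of the own list that scored as high or higher is given instead. The depletion lists also lay in GC-rich sequence. Across protein-coding genes with a GC content under 40%, siStar-PAP had 0.480 summits for each control summit, and in genes of 50% or more it had 5.29. The same ratios for siRBM10 were 0.432 and 4.27. RNA levels were not measured in this experiment, so neither depletion could be checked in these data. The study itself showed Western blots of Star-PAP and of RBM10 from its depleted HEK293 cells.

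The summits in mature mRNA sequence are shown first, because they lie in sequence that is kept in a mature mRNA. Without strand they do not show which transcript, or whether pre-mRNA or mRNA, was bound. Each line gives 25 nt of hg19 on the strand of the gene, 5′ to 3′, and the capital marks the summit base. A summit was called CDS, 3′-UTR or 5′-UTR by any annotated transcript of the gene, in that order.
NQO1 siStar-PAP, 3′-UTR, chr16:69743860-69743884: attcaagaaaggAaatagtaccttc
NQO1 siStar-PAP, 3′-UTR, chr16:69744764-69744788: gtttttctttttCcacaaggaataa
NQO1 siRBM10, 3′-UTR, chr16:69743561-69743585: tgcattgaaagaAgagatgagaaat
NQO1 siRBM10, 3′-UTR, chr16:69744477-69744501: cagaagggaattGctcagagaagga
HMOX1 control, 3′-UTR, chr22:35789741-35789765: aggaggaaggagCctatggcatctt
HMOX1 siStar-PAP, CDS, chr22:35782806-35782830: ggacctggccttCtggtacgggccc
HMOX1 siStar-PAP, CDS, chr22:35785899-35785923: gaccagagccccTcacgggcaccag
HMOX1 siRBM10, CDS, chr22:35779172-35779196: ttcatgaggaacTttcagaagggcc
GCLC control, CDS, chr6:53365049-53365073: tgagcatagacaCcatcatcaatgg
GCLC siRBM10, CDS, chr6:53365221-53365245: aaagatatttgcAaaggtattacat
GCLC siRBM10, CDS, chr6:53374030-53374054: aaacaggtgacaTtccaagcctgca
NOS2 siRBM10, CDS, chr17:26108079-26108103: ggcagcatcagaGgggaccctgcca
COQ2 control, CDS, chr4:84188810-84188834: atgctgggggcaCtgagcctagtgg
COQ2 control, 3′-UTR of a transcript other than the MANE Select one, chr4:84187840-84187864: aatgaatgaactAaatctaattttg

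These are 14 of the 15 member summits in mRNA exons, and each of the 14 windows occurred once in hg19 on both strands together. The remaining summit, from the control list, lay in a 5′-UTR of a GCLC transcript, and its 25 nt occurred 22 times. Letters ATA, the DNA form of the AUA motif described for Star-PAP, were searched on the strand of the gene only. They were present in 1 of 5 control, 2 of 4 siStar-PAP and 1 of 6 siRBM10 windows of mRNA exons. Of all windows of 25 nt at summits in mRNA exons, 23.8% of control, 13.5% of siStar-PAP and 13.6% of siRBM10 held ATA. With so few members no difference from those shares could be read. The 2 siStar-PAP windows with ATA were both in the 3′-UTR of NQO1.

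The member genes held 31 control, 37 siStar-PAP and 42 siRBM10 summits, and with 5000 bp on each side 38, 46 and 52. Sequence of the same length on the same chromosomes held on average 36.6 control, 37.4 siStar-PAP and 33.5 siRBM10 summits. Each of these means lay within the exact Poisson interval of its count. A summit within the gene was found in 5 of 6 members in control, beside 70.3% of protein-coding genes, and in 6 of 6 in siStar-PAP and siRBM10, beside 85.4% and 84.4%. All but NQO1 had summits in the gene in all 3 libraries, beside 64.0% of genes. Most summits were intronic, with 25 of 31 in control, 32 of 37 in siStar-PAP and 36 of 42 in siRBM10. Introns also made up most of the length of these genes. Their MANE Select mRNAs were 1525 to 9561 nt long, in genes of 13854 to 119630 bp. The intronic counts are therefore not read as a trait of the members. Summits in mRNA exons numbered 5, 4 and 6.

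A control summit in an mRNA exon was found in 3 of 6 members, HMOX1, GCLC and COQ2, beside 30.4% of 19821 genes with an annotated mRNA. For siStar-PAP it was 2 of 6, NQO1 and HMOX1, beside 52.8%. For siRBM10 it was 4 of 6, NQO1, HMOX1, GCLC and NOS2, beside 50.8%. The exonic siRBM10 summit of NOS2 had the lowest score of its list, and with p at most 0.01 the siRBM10 number was 3. HMOX1 alone had a summit in an mRNA exon in all 3 libraries, as did 13.3% of genes. ALDH2 had none in any library, as did 24.4% of genes. A control summit in an exon together with no siStar-PAP summit in any exon was found for GCLC and COQ2, beside 11.7% of genes. For siRBM10 in place of siStar-PAP it was COQ2 alone, beside 12.3%. The reverse, an exonic siStar-PAP summit without an exonic control summit, was found in NQO1, beside 34.2%, and for siRBM10 in NQO1 and NOS2, beside 32.7%. A count over 6 members is too small for a departure from these shares to be read.

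By part of the mRNA, the CDS held a control summit in GCLC and COQ2, beside 16.6% of genes, a siStar-PAP summit in HMOX1, beside 34.1%, and a siRBM10 summit in HMOX1, GCLC and NOS2, beside 31.3%. The 3′-UTR held a control summit in HMOX1 and COQ2, beside 16.1% of genes. In both depletion lists the 3′-UTR summits were all in NQO1, beside 27.6% of genes for siStar-PAP and 26.5% for siRBM10. GCLC, ALDH2 and NOS2 had no 3′-UTR summit in any library, as did 53.5% of genes. The plot of summits along each gene shows where they lay.

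**Figure D1:**
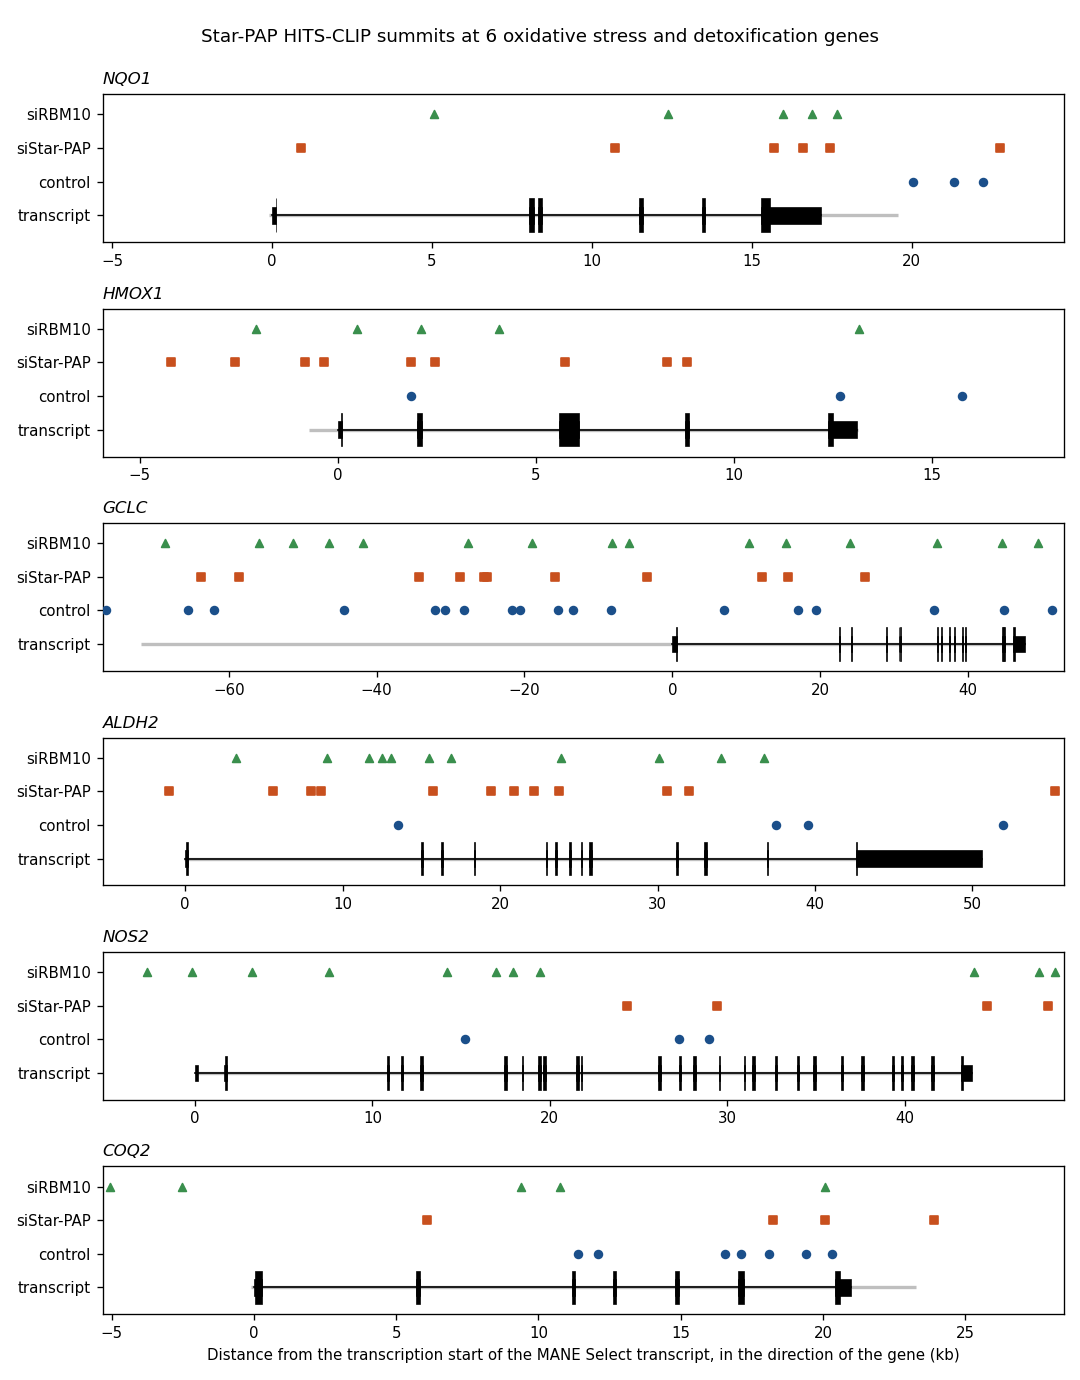
Positions of summits along the 6 genes, as distance in kb from the transcription start of the MANE Select transcript in the direction of the gene, with 5000 bp on each side of the gene; tall black boxes are coding sequence, low boxes untranslated exons, black lines introns and grey lines the span of longer transcripts. NQO1 has 0 control summits within the gene and 5 in each depletion list, and in GCLC most summits lie upstream of the MANE Select transcript.

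NQO1, NAD(P)H quinone dehydrogenase, was without a control summit and had depletion summits at its 3′ end. It lies on the minus strand at chr16:69740899-69760571, and its gene body held 0 control, 5 siStar-PAP and 5 siRBM10 summits. The exact Poisson interval was 0 to 3.69 for the control count and 1.62 to 11.7 for each of the others. A siStar-PAP summit without any control summit in the gene was found for 19.1% of protein-coding genes, and a siRBM10 summit without one for 18.5%. Of genes with a GC content between 45% and 50%, the class of NQO1, 76.4% had more siStar-PAP and 72.7% more siRBM10 than control summits. The nearest control summit, with a score of 2.28, lay at position 69740430, 469 bp outside the gene and 2874 bp past the 3′ end of the MANE Select transcript. MANE Select denotes the reference transcript chosen jointly by Ensembl and RefSeq.

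In siStar-PAP 2 summits lay in the 3′-UTR of NQO1, in exon 6 of 6. The first, at 69743872, lay 568 bp before the 3′ end with a score of 4.70, the highest siStar-PAP score of the gene, which 2.94% of the list reached. The second, at 69744776, lay 1472 bp before the end with a score of 2.49. A further one at 69743009, with a score of 4.28, lay 295 bp past the MANE Select end, in an intron of a longer transcript, and was the siStar-PAP summit nearest to that end. An antisense lncRNA, ENSG00000261602, overlaps the summit at 69743872, and without strand the reads of the 2 genes cannot be told apart.

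The siRBM10 list had 2 summits in the same exon. That at 69743573, 269 bp before the 3′ end, had the commonest score of 3.25 and was the nearest to the end. The other, at 69744489 and 1185 bp before the end, had the highest siRBM10 score of the gene, 4.48, which 10.6% of the list reached. A summit at 69742784 lay 520 bp past the end with a score of 4.27. Each of these 3 siRBM10 summits had a siStar-PAP summit close by, at 225, 299 and 287 bp, whereas the control summit nearest to any of them was 2354 bp away.

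The study measured NQO1 by RNA immunoprecipitation of Star-PAP with separate primers for the UTR and the CDS, by qRT-PCR, by Western blotting, by 3′-RACE and by a cleavage assay. It reported more Star-PAP at the UTR than at the CDS, and association lost after Star-PAP depletion. RNA, protein and 3′-RACE product were reported to fall after that depletion, and uncleaved RNA to rise. The control list had no summit within NQO1, so the lists could not show a loss of association at the amplicons. The UTR amplicon, chr16:69743198-69743385, spans the MANE Select 3′ end. The nearest siStar-PAP summit was 189 bp and the nearest siRBM10 summit 188 bp from it, whereas the nearest control summit was 2768 bp away. The 3′-RACE primer lay at chr16:69744471-69744490 and held the siRBM10 summit at 69744489. The CDS primers, in exons 3 and 4, spanned chr16:69748880-69752085 with the intron between them, in which a siStar-PAP summit lay at 69749743 with a score of 2.68. The nearest control summit was 8450 bp from that span.

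HMOX1, heme oxygenase 1, had a control summit in its 3′-UTR that was not shared with siStar-PAP, as 89.1% of all control summits were not. The gene lies on the plus strand at chr22:35776354-35790207 and held 2 control, 6 siStar-PAP and 3 siRBM10 summits, with exact Poisson intervals of 0.242 to 7.22, 2.20 to 13.1 and 0.619 to 8.77, which overlap. The 3′-UTR summit, in exon 5 of 5 at 35789753, lay 447 bp before the 3′ end with a score of 3.57. Only 3.03% of the control list scored as high or higher. The nearest siStar-PAP summit was 3842 bp away, in the CDS of exon 4. A siRBM10 summit at 35790251, 51 bp past the 3′ end, lay 498 bp from it and had the highest siRBM10 score of the window, 4.56.

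The other control summit of HMOX1, at 35778924 in intron 1 with a score of 3.35, had both a siStar-PAP summit 16 bp away and a siRBM10 summit 260 bp away. That siRBM10 summit, at 35779184 with a score of 2.40, was in the CDS of exon 2, at codon 37. The 25 nt at the control summit occurred 999 times in hg19 and those at the siStar-PAP summit 144 times, so this sequence is repeated in the genome. The siStar-PAP list had 2 summits in the CDS, at 35782818 in exon 3, codon 95, with a score of 1.88, and at 35785911 in exon 4, codon 231, with a score of 2.06. The highest siStar-PAP score of the gene, 5.05, was at 35776737, 352 bp before the MANE Select start, and 1.01% of the list reached it. The highest control score of the window, 3.76, was at 35792839 in the downstream flank.

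The study measured HMOX1 by qRT-PCR, Western blotting and 3′-RACE, and reported less RNA, protein and 3′-RACE product after Star-PAP depletion. The 3′-RACE primer, at chr22:35789538-35789558 in exon 5, lay 195 bp from the control 3′-UTR summit, 693 bp from the nearest siRBM10 and 3627 bp from the nearest siStar-PAP summit. The qRT-PCR amplicon, chr22:35782863-35783048 in exon 3, lay 45 bp from the siStar-PAP CDS summit at codon 95. The nearest control summit was 3939 bp from that amplicon.

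GCLC, the catalytic subunit of glutamate-cysteine ligase, is the longest of the 6 genes as annotated and had the most summits within the gene in every library, though not for its length or in its MANE Select span. It lies on the minus strand at chr6:53362139-53481768 and held 16 control, 11 siStar-PAP and 14 siRBM10 summits, beside local means for its length of 18.4, 16.2 and 15.4 in the 500 kb on each side. Its exact Poisson intervals of 9.15 to 26.0, 5.49 to 19.7 and 7.65 to 23.5 overlap and include those means. The annotated gene is 119630 bp long, whereas the MANE Select transcript spans 47761 bp, and that span held 5 control, 3 siStar-PAP and 5 siRBM10 summits, fewer than the 7 control summits of COQ2 or the 10 siStar-PAP and 11 siRBM10 summits of ALDH2 in theirs. Of the 18 control summits of the window, 15 had the commonest score of 1.33. Another gene, ENSG00000231683, overlaps GCLC upstream of the MANE Select start. Summits of every library lay in that overlap, and without strand they cannot be assigned to either gene.

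In the CDS of GCLC a control summit lay at 53365061, in exon 14 of 16 at codon 522, with a score of 2.28. This highest control score of the gene was shared by 2 intronic summits upstream of the MANE Select start. The CDS summit was the control summit nearest to the 3′ end. A siRBM10 summit lay 172 bp from it on the genome, at 53365233 in exon 13, codon 492, with a score of 3.25. The second siRBM10 summit in the CDS, at 53374042 in exon 7, codon 254, had a score of 5.20, which 5.19% of the list reached. It shared the highest siRBM10 score of the gene with summits at 53437470 and 53456326, upstream of the MANE Select start. The control summit in the 5′-UTR of another transcript, at 53374560, had the commonest score and lay 518 bp from the siRBM10 summit of exon 7.

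No siStar-PAP summit lay in an exon of GCLC. The nearest to the 3′ end, at 53383864 in intron 3, was 21725 bp away and had the highest siStar-PAP score of the gene, 4.28. The nearest siRBM10 summit was 1686 bp past the end. The qRT-PCR amplicon used for GCLC ran from exon 2 to exon 3, chr6:53385657-53387258, and held a siRBM10 summit in intron 2, at 53385850 with a score of 2.48. The nearest siStar-PAP summit was 1793 bp and the nearest control summit 3221 bp from it.

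ALDH2, which oxidises acetaldehyde in mitochondria, had intronic summits only. It lies on the plus strand at chr12:112204691-112255336 and held 3 control, 10 siStar-PAP and 11 siRBM10 summits, with exact Poisson intervals of 0.619 to 8.77, 4.80 to 18.4 and 5.49 to 19.7. The local means for its length were 3.86, 10.9 and 10.1, so each count was close to that of its neighbourhood. A read-through gene, ENSG00000257767, overlaps its 5′ part. Summits of the window up to 112228594 lay in that other gene, and those from 112234803 on did not.

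The control summits of ALDH2 were at 112218243 in intron 1 with a score of 2.08, at 112242265 in intron 12 with 2.22, and at 112244294 in intron 12 with 3.49, which 3.39% of the list reached. The control summit nearest to the 3′ end lay 1312 bp past it, at 112256648 with a score of 2.45. The highest siStar-PAP score, 4.04, was at 112212709 in intron 1, and the highest siRBM10 score, 2.74, at 112238775 in intron 11. The nearest siStar-PAP summit lay 4610 bp past the 3′ end, and the nearest siRBM10 summit 13814 bp before it. In this gene 3 of the 12 siStar-PAP summits of the window had a siRBM10 summit within 500 bp, at 329, 221 and 90 bp.

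Of the ALDH2 windows of 25 nt, 0 of 4 control, 6 of 12 siStar-PAP and 5 of 11 siRBM10 occurred more than once in hg19. The study measured ALDH2 by qRT-PCR and reported lower expression after Star-PAP depletion. The primers lie in exons 9 and 10, and the span between them, chr12:112230476-112235926, held in its intron a siStar-PAP summit at 112235363 and a siRBM10 summit at 112234803, whereas the nearest control summit was 6339 bp away.

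NOS2, inducible nitric oxide synthase, had more summits in siRBM10 than in either other library. It lies on the minus strand at chr17:26083792-26127555 and held 3 control, 2 siStar-PAP and 6 siRBM10 summits, and with 5000 bp on each side 3, 4 and 11. The exact Poisson intervals of 0.619 to 8.77, 0.242 to 7.22 and 2.20 to 13.1 overlap. All 3 counts were below the local means of 5.32, 8.26 and 8.64, and the siStar-PAP interval did not reach its mean. In the same class of genes with a GC content of 50% or more, 3.07% had fewer siStar-PAP than control summits, as NOS2 had.

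A siRBM10 summit lay in the CDS of NOS2 at 26108091, exon 8 of 27, codon 279. Its score of 1.30 was the lowest of the siRBM10 list. The highest siRBM10 score of the gene, 5.46, was at 26110611 in intron 5, and 0.929% of the list reached it. Near the gene ends, siRBM10 summits lay 115 bp past the 3′ end, with a score of 2.14, and 169 bp before the start, with 4.48. The first of these was the siRBM10 summit nearest to the 3′ end, and the nearest siStar-PAP summit was 868 bp past that end with the highest siStar-PAP score of the window, 2.90.

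Control summits of NOS2 had scores of 1.75 at 26098605, 2.29 at 26100271 and 2.06 at 26112313. That at 26100271 was in intron 12, 2 bp from an exon. That at 26098605 lay in an exon of a non-coding transcript and was the nearest to the 3′ end, at 14813 bp. A siStar-PAP summit at 26098145, also in a non-coding exon, lay 460 bp from it with a score of 2.15. The study used NOS2 in RNA immunoprecipitation of Star-PAP after RBM10 depletion and in expression measurements. After RBM10 depletion it reported a loss of Star-PAP association and lower NOS2 expression. The forward primer of both, at chr17:26108122-26108141 in exon 8, lay 31 bp from the siRBM10 CDS summit, 4172 bp from the nearest control and 4940 bp from the nearest siStar-PAP summit. The reverse primers did not match the genome as read and were not placed.

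COQ2, 4-hydroxybenzoate polyprenyltransferase, was the member with the densest control summits in the full lists. It lies on the minus strand at chr4:84182689-84206067 and held 7 control, 3 siStar-PAP and 3 siRBM10 summits, with exact Poisson intervals of 2.81 to 14.4 for control and 0.619 to 8.77 for each of the others, which overlap. The control density, 2.99 per 10 kb, was above that of 97.4% of protein-coding genes, and the local means were 4.13, 1.92 and 2.22 summits for its length. Of the 7 control summits 5 had the commonest score of 1.33. With p at most 0.01 the gene held 2 control, 3 siStar-PAP and 3 siRBM10 summits, so the direction from control turned. That threshold keeps 33.6% of the whole control list, 84.6% of siStar-PAP and 90.5% of siRBM10.

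The control summit of highest score in COQ2, 2.49, lay in the CDS at 84188822, exon 6 of 7, codon 290. Of the control list 13.1% scored as high or higher. It lay within the amplicon, chr4:84188744-84188904, that the study used for qRT-PCR and for mRNA half-life. The nearest siStar-PAP summit was 1051 bp and the nearest siRBM10 summit 2866 bp from that amplicon. A second control summit in an mRNA exon, at 84187852 with a score of 1.33, was in the 3′-UTR of another transcript, within intron 6 of the MANE Select one, with a siStar-PAP summit at a distance of 159 bp. After Star-PAP depletion the study reported a higher COQ2 mRNA level and a longer half-life. The study also measured COQ2 by RNA immunoprecipitation of Star-PAP after RBM10 depletion, and reported a loss of association. After that depletion it also reported higher COQ2 expression and a longer half-life of target mRNAs. It grouped COQ2 with the CDS-associated mRNAs.

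Nearest to the 3′ end of COQ2, in intron 6, a control summit lay 652 bp before the end at 84185629 with a score of 2.28. The siStar-PAP and siRBM10 lists had a summit at 1 and the same base, 84185878, 249 bp from it and 901 bp before the end, with their commonest scores of 2.92 and 3.25. This was the single position that any 2 lists shared to the base in the member windows. It is shown because it is the only such base, with the summit in capitals.
COQ2 siStar-PAP and siRBM10, intron 6, chr4:84185866-84185890: cattcatgcaacCctcaaccgaaaa
Its 25 nt occurred once in hg19. In the downstream flank of COQ2 lay the highest siStar-PAP score of the window, 4.28 at 84182034. All 3 siRBM10 summits in the gene had the commonest score of 3.25.

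**Figure D2:**
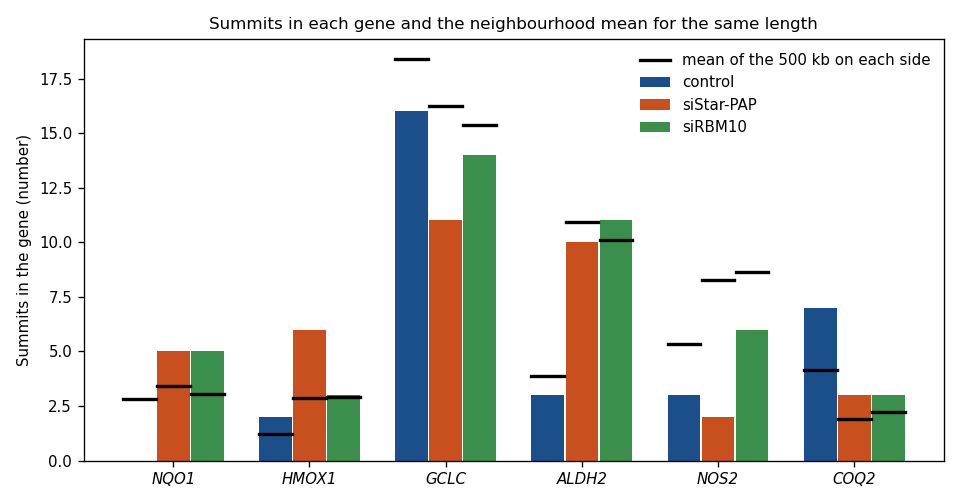
Number of summits within each gene (bars) in control, siStar-PAP and siRBM10, with the mean number for a stretch of the same length in the 500 kb on each side of the gene (black lines). COQ2 was the 1 gene above its control line by more than 2 summits, with 7 against 4.13, and GCLC and NOS2 were below their lines in every library.

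Across the 6 genes, fewer siStar-PAP than control summits were found in GCLC, NOS2 and COQ2, and more in NQO1, HMOX1 and ALDH2, beside 29.7% and 54.5% of protein-coding genes. Fewer siRBM10 than control summits were found in GCLC and COQ2, and more in the other 4, beside 32.2% and 51.0%. These directions depend in part on the low scores of the control list. A threshold of p at most 0.01 keeps 33.6% of that list, but 84.6% of siStar-PAP and 90.5% of siRBM10. The share of all genes that turn with it was not counted, so the turn is not read as a trait of the members. With p at most 0.01 no member had fewer siStar-PAP or siRBM10 than control summits, since the siStar-PAP difference from control became 6 in GCLC, 1 in COQ2 and 0 in NOS2 and that of siRBM10 became 11 in GCLC and 1 in COQ2. With the same number of top summits per list, the differences of GCLC became 2 and 5. In that setting COQ2 still had fewer summits in both depletion lists, with -1 each, and the siStar-PAP difference of NOS2 remained -1. The GC content of the gene was 39.4% in COQ2, 40.2% in GCLC, 46.9% in NQO1, 48.8% in ALDH2, 51.1% in HMOX1 and 51.4% in NOS2. Fewer siStar-PAP than control summits were found in 77.7% of all genes under 40%, the class of COQ2, in 34.8% between 40% and 45%, the class of GCLC, in 7.59% between 45% and 50%, and in 3.07% at 50% or more. In the class of GCLC more genes, 50.2%, had more siStar-PAP summits than control. The share with more was 76.4% between 45% and 50%, the class of NQO1 and ALDH2. It was 76.6% at 50% or more, the class of HMOX1 and NOS2. On the members' whole chromosomes, taken in that order of genes, the number of siStar-PAP summits differed from control by -63.7%, -16.9%, 21.9%, -19.4%, 165% and 105%, so chromosome 12 of ALDH2 had fewer while ALDH2 had more. The part of base composition in the counts of the members was not tested.

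**Figure D3:**
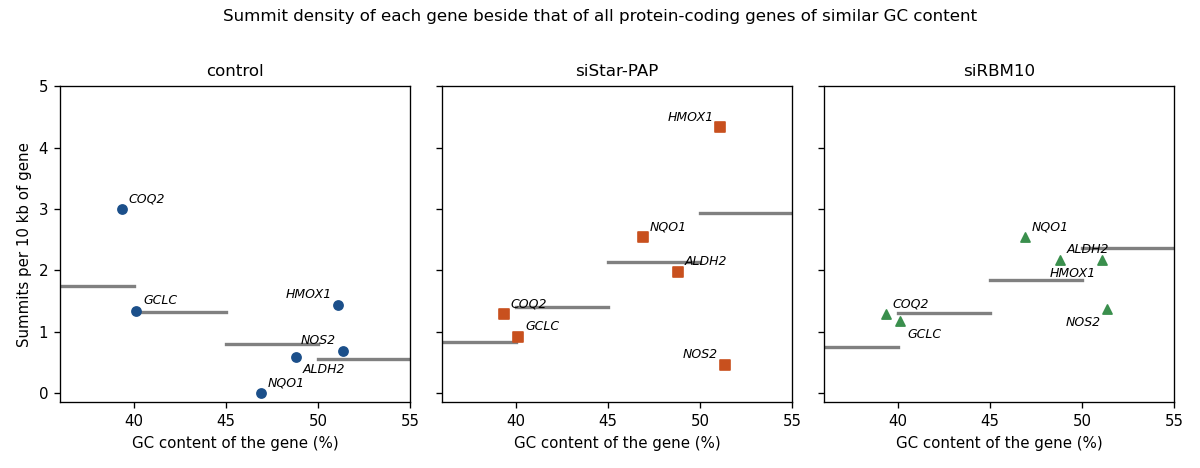
Summits per 10 kb of gene against the GC content of the gene in % for the 6 members (symbols), with the density of all protein-coding genes in 4 classes of GC content (grey lines). In control the line falls from 1.74 per 10 kb under 40% to 0.555 at 50% or more, in siStar-PAP it rises from 0.835 to 2.94, and NOS2 lies below the siStar-PAP line at 0.457.

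At the 3′ end, where the poly(A) tail is added, the members differed by library. Capitals in the last 30 nt of the MANE Select transcripts mark AATAAA or ATTAAA, the DNA letters of the main poly(A) signals, searched on the strand of the gene. The ends of NQO1, HMOX1 and ALDH2 are shown to place the summits against the signal.
NQO1, chr16:69743304-69743333: ataAATAAAattcatttctacagacccaca
HMOX1, chr22:35790171-35790200: tgaaatAATAAAcaacattgtctgatagta
ALDH2, chr12:112255307-112255336: gacataaggATTAAAaagacaaaccataaa
The first base of the signal was the 27th from the end in NQO1, the 24th in HMOX1 and the 21st in ALDH2. Neither hexamer was in the last 30 nt of GCLC or NOS2. Of 18922 MANE Select transcripts 71.6% held either.

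A control summit lay within 500 bp of the 3′ end in 1 of 6 members, HMOX1, beside 8.24% of MANE Select transcripts. In siStar-PAP it was NQO1, beside 17.1%, and in siRBM10 NQO1, HMOX1 and NOS2, beside 15.4%. The distance from the 3′ end to the nearest summit ranged from 447 to 14813 bp in control, from 295 to 21725 bp in siStar-PAP and from 51 to 13814 bp in siRBM10. Median distances were 2093, 2595 and 585 bp for the members, and 4026.5, 1828 and 2047 bp for all transcripts. No member had a summit within 500 bp of its 3′ end in all 3 libraries.

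**Figure D4:**
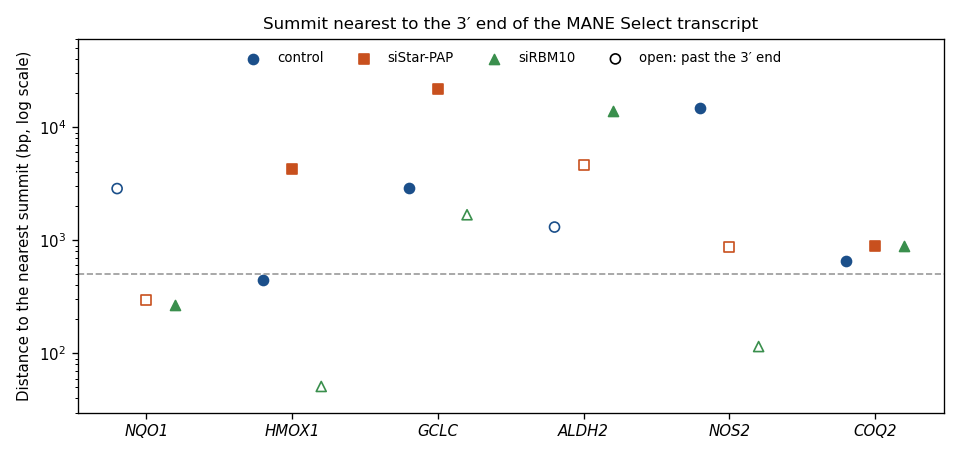
Distance in bp, on a log scale, from the 3′ end of the MANE Select transcript to the nearest summit of control, siStar-PAP and siRBM10 for each gene, with filled symbols before the end, open symbols past it and a dashed line at 500 bp. HMOX1 has the control symbol below the line at 447 bp, and siRBM10 symbols lie below it in NQO1 at 269 bp, HMOX1 at 51 bp and NOS2 at 115 bp.

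Summits of different libraries seldom lay close together. Of the 38 control summits, 32 had no siStar-PAP summit within 500 bp, which is 84.2% (Wilson 95% interval 69.6 to 92.6%) beside 89.1% of all control summits. For siRBM10 the count was again 32, beside 91.1%. A siStar-PAP and a siRBM10 summit were both within 500 bp of 2 control summits, that in intron 1 of HMOX1 and that in intron 6 of COQ2, beside 1.59% of all control summits. Between the depletion lists, 11 of 46 siStar-PAP summits had a siRBM10 summit within 500 bp, beside 16.4% of all. NQO1 and ALDH2 held 3 of these pairs each and HMOX1 held 2.

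Many windows were not unique in the genome. The 25 nt around the summit occurred more than once in hg19 for 8 of 38 control, 14 of 46 siStar-PAP and 19 of 52 siRBM10 summits of the members, which is 21.1%, 30.4% and 36.5%, beside 25.4%, 26.0% and 23.4% of all summits. The highest number of occurrences per library was 16523 in control, in GCLC, 58839 in siStar-PAP, in ALDH2, and 6944 in siRBM10, in ALDH2. Apart from the control summit in the 5′-UTR of GCLC, these repeated windows were all outside mRNA exons. The part of repeated sequence in the intronic counts was not tested.

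**Figure D5:**
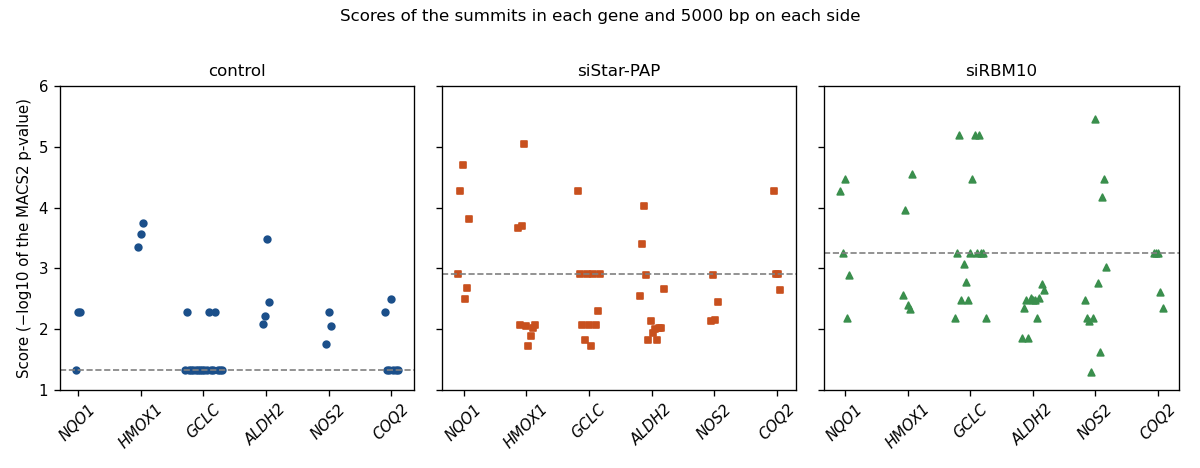
Scores (−log10 of p from MACS2) of the summits in each gene and 5000 bp on each side for control, siStar-PAP and siRBM10, with the commonest score of each whole list as a dashed line. Control summits in GCLC and COQ2 lie mostly on the line at 1.33, whereas those in HMOX1 range from 3.35 to 3.76.

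In control, no summit of HMOX1, ALDH2 or NOS2 had the commonest score of the list. The 3 control summits of HMOX1 scored between 3.35 and 3.76, whereas 15 of 18 in GCLC and 5 of 7 in COQ2 were at 1.33. Of the member windows, 21 of 38 control summits had the commonest score, which is 55.3% beside 63.2% of the list. With p at most 0.01, the control counts in the gene were 0 in NQO1, 2 in HMOX1, 3 in GCLC, 3 in ALDH2, 2 in NOS2 and 2 in COQ2. The siStar-PAP counts were then 5, 4, 9, 7, 2 and 3 in the same order, and the differences of GCLC and COQ2 from control turned from fewer to more. Of the whole lists, 33.6% of control and 84.6% of siStar-PAP summits passed this threshold.

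Among 43 other genes of NRF2 signalling, glutathione, thioredoxin, heme, nitric oxide, aldehyde and coenzyme Q metabolism, 10 had a control summit in an mRNA exon, which is 23.3% beside 30.4% of all genes. In siStar-PAP 21 had one, 48.8% beside 52.8%, and in siRBM10 20, 46.5% beside 50.8%. Fewer siStar-PAP than control summits were found in 12 and more in 26 of the 43 genes, beside 29.7% and 54.5% of all genes. For siRBM10 the numbers were 12 and 29, beside 32.2% and 51.0%. By role, exon summits in control, siStar-PAP and siRBM10 were found in 3, 4 and 2 of 7 glutathione genes, in 2, 2 and 2 of 5 heme and iron genes, and in 2, 4 and 5 of 9 genes of thioredoxin, superoxide, catalase and NADPH. The numbers were 1, 5 and 4 of 9 coenzyme Q genes, 1, 2 and 3 of 6 aldehyde dehydrogenases, and 1, 2 and 2 of 4 NRF2 pathway regulators. They were 0, 2 and 2 of the 2 other nitric oxide synthases, and 0 in every library for NQO2, the other quinone reductase.

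The exonic summits of highest score among these 43 genes included HMOX2, the constitutive heme oxygenase, in every library. Its scores were 3.63 in control, 8.07 in siStar-PAP and 4.13 in siRBM10, each in the CDS, and 2.93%, 0.110% and 12.03% of the own list scored as high or higher. BLVRB, a biliverdin reductase that acts after heme oxygenase, had 3.43 in the CDS in control. SOD2, the mitochondrial superoxide dismutase, had 6.43 in a 5′-UTR in siStar-PAP, and NFE2L2, the gene of NRF2, had 5.20 in a 5′-UTR in siRBM10.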

How the data were processed

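Positions and scores were taken from the 3 lists deposited by the authors, 1 per Star-PAP pull-down, in which the score is the −log10 of the MACS2 p-value. The submitters' processing notes name FastQC 0.72, cutadapt 1.14, BWA 0.7.12, MACS2 and hg19. According to the methods of the study, identical reads were collapsed, uniquely mapped reads were kept and peaks were called per library against IgG at p 0.05 with a fragment size of 500 bp. Read totals were not used here, so depth is unknown.

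Members and gene lists were chosen with earlier results of these data known. All 6 members were named with each exonic summit, and per library the summit of highest score and that nearest to the 3′ end. Of the 43 pathway genes, the 2 with the highest exonic score per library were named. Summits were placed with GENCODE release 44 mapped to hg19, without strand. Where classes overlapped, CDS went before 3′-UTR, then 5′-UTR, non-coding exon, intron and flank. Summits within 500 bp were called shared. The sequence at the 3′ end of COQ2 is not reported here. Of 40 primer sequences for the members, 31 matched once and were placed. Occurrences of each 25-nt window were counted on chromosomes 1 to 22, X and Y, a count added after the data were seen. Shares have Wilson and counts exact Poisson intervals at 95%. With 1 library per condition no test was made. Alternatives were p at most 0.01, the same number of top summits (294402) per library with ties drawn with seed 1, other flanks, distances and exon definitions. The placing of summits, the search for the nearest one, the counting in intervals and the counting of window occurrences were tested on simulated data. The other steps were not. Computations were made in Python 3.11.15 (matplotlib 3.10.9, scipy 1.17.1, pandas 2.3.3, numpy 2.4.6).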

Additional observations from a re-analysis of the deposited data

How the results depend on the processing

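No paired analysis was possible because each condition had 1 library. Of 89 values recomputed under an alternative, 63 moved little, 20 moved more and 6 changed direction. With p at most 0.01 the control count fell from 31 to 12 in the genes and from 38 to 16 in the windows, since most control scores in GCLC and COQ2 are 1.33. Of the whole lists this threshold kept 33.6% of control, 84.6% of siStar-PAP and 90.5% of siRBM10. Counted in the span of the MANE Select transcript, an alternative chosen after seeing the data, the control count was 20. The share of control summits without a siStar-PAP summit nearby was 97.4% at 100 bp. For siRBM10 it was 100% at 100 bp, 94.7% at 250 bp and 68.8% with p at most 0.01. The difference of siStar-PAP from control in GCLC, -5 summits, became 6 with p at most 0.01 and 2 with the same number of top summits, and that of siRBM10, -2, became 11 and 5. In COQ2 both differences, -4, became 1 with p at most 0.01, and that of siStar-PAP in NOS2, -1, became 0. With the same number of top summits both differences of COQ2 were -1, and that of siStar-PAP in NOS2 stayed at -1. The causes of the remaining changes were not tested. Without replicates, tags or strand, neither the error of a single summit nor its gene of origin where genes overlap could be given.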

Other observations

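A row of the study's list of target genes, held here in part, gives the symbol NQO1 to the description of NDOR1, a different oxidoreductase gene at chr9:140100137-140113813. NDOR1 itself had 1 control summit, at 140104542 in intron 2 with a score of 3.99, which 2.51% of the list reached. It had 5 siStar-PAP and 8 siRBM10 summits in the gene. Of these, 2 siStar-PAP and 3 siRBM10 summits were in mRNA exons, among them a siStar-PAP summit in the 3′-UTR 270 bp before the 3′ end with a score of 3.05. Another gene, ENSG00000284976, overlaps that summit and a siRBM10 one at 140113070, so without strand neither can be assigned to NDOR1. The GC content of NDOR1 was 60.5%, and genes of 50% or more had 5.29 siStar-PAP and 4.27 siRBM10 summits for each control summit. The control list thus had no exonic summit in either gene of that row, and its single summit within them was intronic.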
